A study of Mus musculus with 9 samples.

Results

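Lymph node RNA from both groups of mice that carry NrasQ61K (6 libraries) was compared with that of wild-type (WT) mice (3 libraries), to describe what the oncogene groups share against WT. The oncogene libraries were those of Tyr-NrasQ61K (3 libraries, labelled wtMHCII, NRAS61K, Cre-negative, strain FVB/NJ (Cross)) and of Tyr-NrasQ61K MHCII-KO (3 libraries, labelled MHCII-KO, NRAS61K, Cre-positive, FVB/NJ (Cross)), which together make 6 of the 9 libraries. The WT libraries were labelled wtMHCII, wtNRAS and FVB/NJ, and the methods describe WT controls as albino littermates without the transgene. In Tyr-NrasQ61K mice the tyrosinase promoter, which is active in pigment cells, drives the mutant Nras. The labels name neither the Cre driver nor the deleted MHC class II gene, and they give no age or sex. Since both oncogene groups carry the (Cross) strain label and the WT group does not, strain background and oncogene cannot be told apart. Of 20145 protein-coding entries in the table of values, the 11902 (59.1%) with at least 1 FPKM (fragments per kilobase of transcript, scaled to library size) in at least 3 of the 9 libraries were compared.

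The source label reads nevus melanocytes, whereas the methods give lymph nodes. Summed over 16 B cell genes, the FPKM came to between 753 and 941 in WT and between 510 and 968 in the oncogene libraries, against 23.6 to 35.2 and 47.0 to 67.7 for 21 melanocyte genes. Nras itself measured 14.3, 10.3 and 14.7 FPKM in WT, 10.7, 5.55 and 14.4 in Tyr-NrasQ61K and 10.8, 7.48 and 11.1 in MHCII-KO (log2 fold change -0.39, adjusted p = 0.346 from limma). The groups overlapped, and since these values do not separate the mutant transcript from the endogenous one, they do not check the labels. The MHC class II gene H2-Ab1 was at 271, 108 and 165 FPKM in the MHCII-KO libraries and H2-Eb1 at 444, 360 and 387, so neither was lost from the node. The second replicates of Tyr-NrasQ61K and of MHCII-KO stood apart on the first principal component (59.1% of the variance), at 62.0 and 47.8. WT replicates 1 and 3 lay at its other end, at -46.5 or lower. The remaining libraries, with WT replicate 2 among them at -12.1, lay from -12.2 to 11.5, so this component split the WT group too. Below, the libraries that stood apart are the second replicates of the oncogene groups only. Whether each library is a mouse of its own is not given in the labels, so p-values here cover only the spread among these samples. In RNA of a whole node, fewer cells of a type and less RNA per cell cannot be told apart.

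RAS proteins relay growth signals through the ERK kinase cascade, and a mutation at codon Q61 keeps NRAS switched on. In melanocytes such a signal can end in oncogene-induced senescence, a lasting growth arrest with secreted factors, and pigment cells of these mice are known to reach skin-draining nodes. A lymph node filters lymph through sinuses lined by macrophages, receives dendritic cells that migrate from skin, and holds T and B cells in separate areas. Macrophages that take up lipid or debris express a set of genes known from fat tissue and brain, among them Gpnmb and Trem2, and use the vacuolar proton pump to acidify their lysosomes.

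The upstream sequences of the 3 genes with the largest rise and of the gene with the largest fall among those with an entry are shown, since they were searched for the sites of the factors that drive pigment and lysosome genes (CACGTG and CATGTG) and of AP-1 (TGANTCA), which lies downstream of RAS. They are the 250 bases before the RefSeq start (GRCm38.p6, 5′ to 3′ on the gene's strand), with matches on either strand in capitals. Cdkn1c and Atp6v0d2, which also rank among the largest, had no entry.
Gpnmb, chr6:49036268-49036517, plus strand: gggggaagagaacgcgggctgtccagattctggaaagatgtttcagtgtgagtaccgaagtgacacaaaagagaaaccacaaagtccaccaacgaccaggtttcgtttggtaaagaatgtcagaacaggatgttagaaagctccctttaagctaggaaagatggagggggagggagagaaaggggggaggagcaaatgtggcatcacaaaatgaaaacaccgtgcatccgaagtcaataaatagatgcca
Trem2, chr17:48346151-48346400, plus strand: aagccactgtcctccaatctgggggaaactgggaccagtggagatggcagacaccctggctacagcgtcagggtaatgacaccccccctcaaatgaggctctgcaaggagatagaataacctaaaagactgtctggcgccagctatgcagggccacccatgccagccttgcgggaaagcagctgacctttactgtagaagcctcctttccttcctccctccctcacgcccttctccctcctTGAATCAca
Ahnak2, chr12:112795743-112795992, minus strand: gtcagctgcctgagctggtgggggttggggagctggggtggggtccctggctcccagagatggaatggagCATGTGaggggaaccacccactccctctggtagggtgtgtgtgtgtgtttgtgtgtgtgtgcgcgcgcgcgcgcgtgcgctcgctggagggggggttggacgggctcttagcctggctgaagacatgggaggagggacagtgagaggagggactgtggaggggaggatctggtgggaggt
Timd4, chr11:46810549-46810798, plus strand: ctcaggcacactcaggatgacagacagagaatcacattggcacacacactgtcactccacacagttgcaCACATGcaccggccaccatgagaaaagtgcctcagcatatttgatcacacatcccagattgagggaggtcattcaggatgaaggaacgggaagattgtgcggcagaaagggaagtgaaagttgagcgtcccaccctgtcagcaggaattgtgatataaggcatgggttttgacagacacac
Trem2 held TGANTCA, where N stands for any base, in the form TGAATCA at bases -9 to -3 from its start. Gpnmb held TGANTCA only past the printed stretch, at bases 9 to 15. Whether AP-1 or another factor binds any of these matches was not tested. Ahnak2 and Timd4, which moved in opposite directions, each held CATGTG, at bases -180 to -175 and -181 to -176. In GENCODE M21 Ahnak2 runs from 112772194 to 112802657 on the minus strand. Its printed stretch, taken before the first RefSeq start listed, therefore lies within the gene as annotated there. Of all 27025 genes with a window of 300 bases (250 before to 50 after the start), 7.24% held CACGTG, 14.1% CATGTG and 7.93% TGANTCA, and of the 9561 tested genes with a window 10.1%, 8.86% and 4.94%. Shares of the called genes are not compared, because under 80% of them, 57 of 76 higher and 154 of 197 lower genes, had a window.

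Both NrasQ61K groups together differed from WT in 273 genes, 2.29% of those tested, of which 76 (0.639%) rose and 197 (1.66%) fell, each at an adjusted p of at most 0.05 from limma. Genes known from lipid-associated macrophages, melanosome genes, the growth-arrest gene Cdkn1c and the stress factor gene Gdf15 were among the genes that rose. Genes of sinus macrophages, migratory dendritic cells, mast cells, interferon-induced GTPases and adipocytes were among those that fell. All gene lists below were chosen with earlier results of these data known, so their counts beside the shares of all genes are descriptions only. Changes of at least 1 on the log2 scale of FPKM + 1 made up 56 of the rises and 161 of the falls. In 73 of the 76 and 188 of the 197 genes, the 6 oncogene libraries did not overlap the 3 WT libraries, a pattern that 4.23% of all tested genes showed upwards and 9.99% downwards. The calls and this pattern come from the same values, so the pattern is no further evidence for the calls. Of the genes that rose, 21 were under 1 FPKM in every WT library, and of those that fell, 33 were under 1 FPKM in every oncogene library, so these genes passed the filter only through the group in which they were high.

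**Figure D1:**
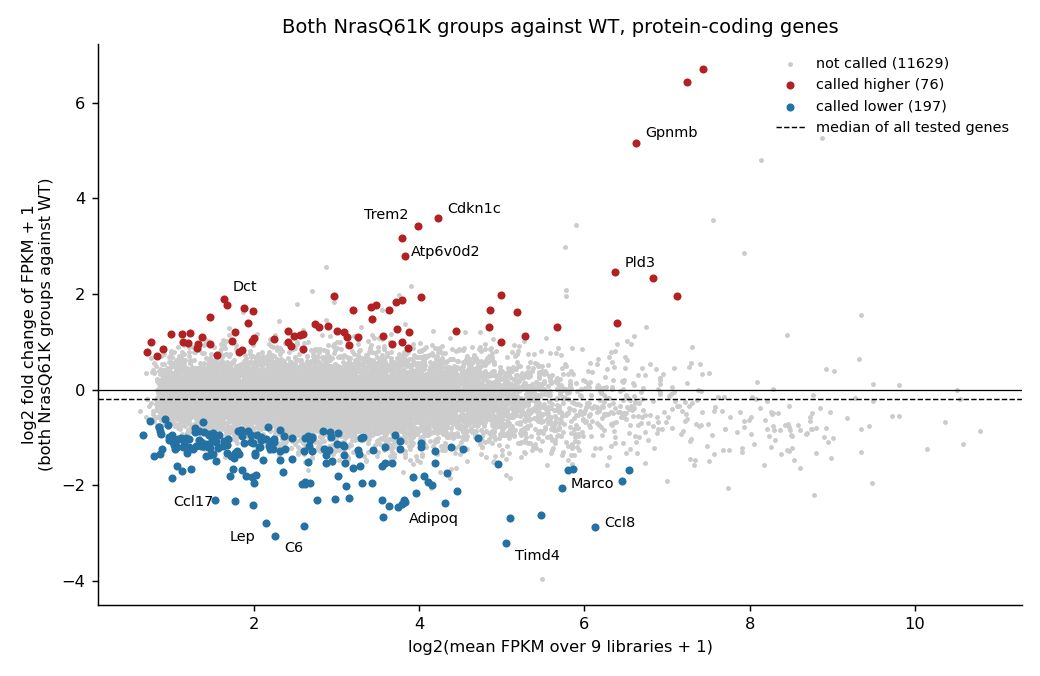
Change of each of 11902 protein-coding genes between both NrasQ61K groups and WT (vertical axis, log2 fold change of FPKM + 1) against its mean level (horizontal axis, log2 of mean FPKM over 9 libraries + 1). Red points are the 76 genes called higher, blue points the 197 called lower and grey points the rest; the dashed line is the median of all tested genes at -0.20, below 0.

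The median log2 fold change over all tested genes was -0.20, and 30.9% of them were above 0. With median-ratio scaling of the libraries this median became 0.01, and 265 genes rose while 252 fell, and with quantile normalization 281 rose and 294 fell, so the share of rises among the calls, 27.8% on the FPKM, became 51.3% and 48.9% under these scalings. Of the 273 genes, 257 were called after median-ratio scaling too, 74 of those that rose and 183 of those that fell. Changes are given below as fitted on the FPKM, against which this median of -0.20 is to be read.

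Single WT libraries decided many calls. Without WT replicate 1, 29 genes rose and 35 fell, and without WT replicate 3, 24 rose and 39 fell, whereas without WT replicate 2, 563 fell. Without MHCII-KO replicate 2 the calls were 47 and 103, without MHCII-KO replicate 3 they were 44 and 100, without Tyr-NrasQ61K replicate 1 the rises became 124, and without Tyr-NrasQ61K replicate 2 the calls were 138 and 315. Without both libraries that stood apart, 105 genes rose and 175 fell. In 53 of the 273 genes, 20 that rose and 33 that fell, the call held whichever of the 9 libraries was left out. When genes of all types were tested (16587) the calls became 34 and 32, and 31 of the 57 called genes that the naming rule took then missed the threshold (adjusted p from 0.0581 to 0.149 from limma). The other 26, among them Gpnmb, Trem2, Cdkn1c, Atp6v0d2, Gdf15, Dct, C6, Ccl8, Ccl17, Apol7c, Lep, Npr3, Ghr and Gzmc, were called in each of the 21 alternatives.

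All 273 genes lay on the same side of WT in both oncogene groups. Since they were called on the mean of both groups, this was largely set by the choice, and nothing is read from it. For MHCII-KO minus Tyr-NrasQ61K, 0 genes (0%) were called by limma, and 125 of 11902 had an unadjusted p under 0.05, 6 of them among the 273. Over the 273 genes the median absolute difference between the oncogene groups was 0.13, and the median absolute change against WT was 1.23, both on the log2 scale of FPKM + 1. The genes were called for their change against WT, which raises the second median, so the 2 medians do not measure how far the change is shared. The 95% interval of the difference had a median width of 1.15, so differences within such an interval were not detectable with 3 libraries per group. Under other settings 6 genes were called for this difference with library weights, 8 with all gene types, and 1 without Tyr-NrasQ61K replicate 2. Against WT on its own, Tyr-NrasQ61K had 36 genes that rose (0.302%) and 69 that fell (0.58%), and MHCII-KO had 35 (0.294%) and 73 (0.613%). These 2 comparisons share the WT libraries.

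**Figure D2:**
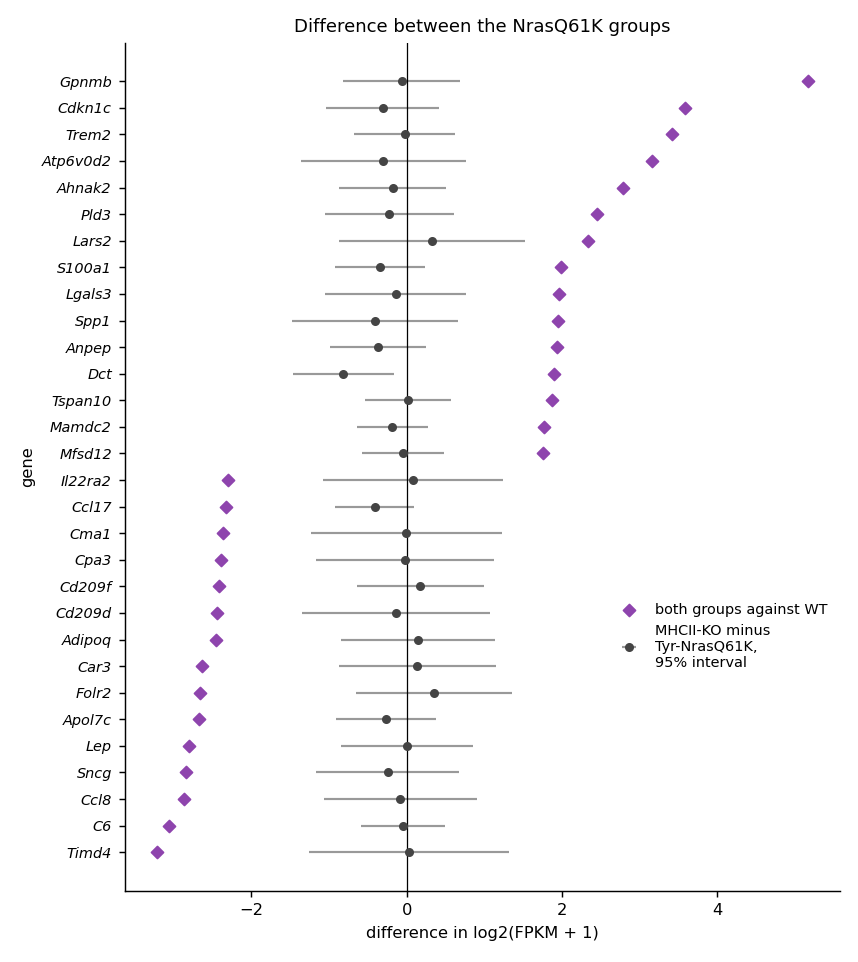
Difference between the oncogene groups (grey points with 95% intervals, MHCII-KO minus Tyr-NrasQ61K) and change of both groups against WT (purple diamonds) for 15 genes that rose and 15 that fell, in log2(FPKM + 1). The intervals cover 0 except for Dct, which runs from -1.46 to -0.17, and no diamond lies within its gene's interval. The genes were chosen for their large change against WT, so nothing is read from the place of the diamonds.

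Genes of lipid-associated macrophages rose. Of 20 tested, 8 rose (40% against 0.639% of all genes) and 0 fell, with a median log2 fold change of 0.82 against -0.20 over all genes. The list was chosen with earlier results of these data known, so nothing is read from this count. Gpnmb, a glycoprotein of lysosomes and melanosomes, was at 4.23, 1.57 and 3.56 FPKM in WT, at 204, 96.4 and 151 in Tyr-NrasQ61K and at 109, 148 and 161 in MHCII-KO. Every oncogene library lay more than an order of magnitude above every WT library, and by limma Gpnmb rose by 5.17 on the log2 scale (standard error 0.30, adjusted p = 9.19e-06). Trem2, a lipid receptor of macrophages, was at 2.08, 0.382 and 1.15 FPKM in WT, at 26.6, 16.9 and 22.3 in Tyr-NrasQ61K and at 17.9, 24.9 and 21.2 in MHCII-KO (log2 fold change 3.42, standard error 0.257, adjusted p = 6.10e-05 from limma). Atp6v0d2, a proton pump subunit of macrophages and osteoclasts, was at 1.62, 0.327 and 1.16 FPKM in WT, at 31.2, 6.38 and 30.1 in Tyr-NrasQ61K and at 16.1, 11.0 and 18.1 in MHCII-KO. Its groups did not overlap either, with the lowest oncogene value in Tyr-NrasQ61K replicate 2, one of the libraries that stood apart (log2 fold change 3.16, adjusted p = 0.00279 from limma).

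Further genes of this list were the matrix protease gene Mmp12 (log2 fold change 1.73), the galectin gene Lgals3 (1.96), the secreted matrix protein gene Spp1 (1.95), the lysosomal protease gene Ctsk (1.33) and the vesicle protein gene Syngr1 (1.30), with adjusted p from 0.00405 to 0.0345 from limma. Spp1 was at 3.41, 0.646 and 0.909 FPKM in WT and at 3.75 to 20.3 in the oncogene libraries, so that its highest WT library lay just under its lowest oncogene library. It missed the threshold without WT replicate 2 (adjusted p = 0.0704 from limma) or 3 (0.219), Tyr-NrasQ61K replicate 3 (0.0573), or MHCII-KO replicate 2 (0.0509) or 3 (0.0731), and Lgals3 missed it without WT replicate 3 (0.0638). Not all of the list moved, and general macrophage genes did not pass. Apoe, the lipoprotein gene with the highest FPKM of the list, was at 1439.7, 529 and 1345 FPKM in WT and at 433 to 846 in the oncogene libraries (log2 fold change -0.55, adjusted p = 0.397 from limma). Cd68, a lysosomal membrane protein of macrophages, was at 28.7, 13.4 and 34.1 FPKM in WT and at 9.77 to 58.4 in the oncogene libraries (0.37, adjusted p = 0.657 from limma). Summed over the 20 genes, the FPKM lay between 864 and 2079 in WT, between 1097 and 2215 in Tyr-NrasQ61K and between 1457 and 1936 in MHCII-KO, which overlap. Without both libraries that stood apart 9 of the 20 rose, and 7, 6 and 5 did without WT replicate 1, 2 and 3.

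**Figure D3:**
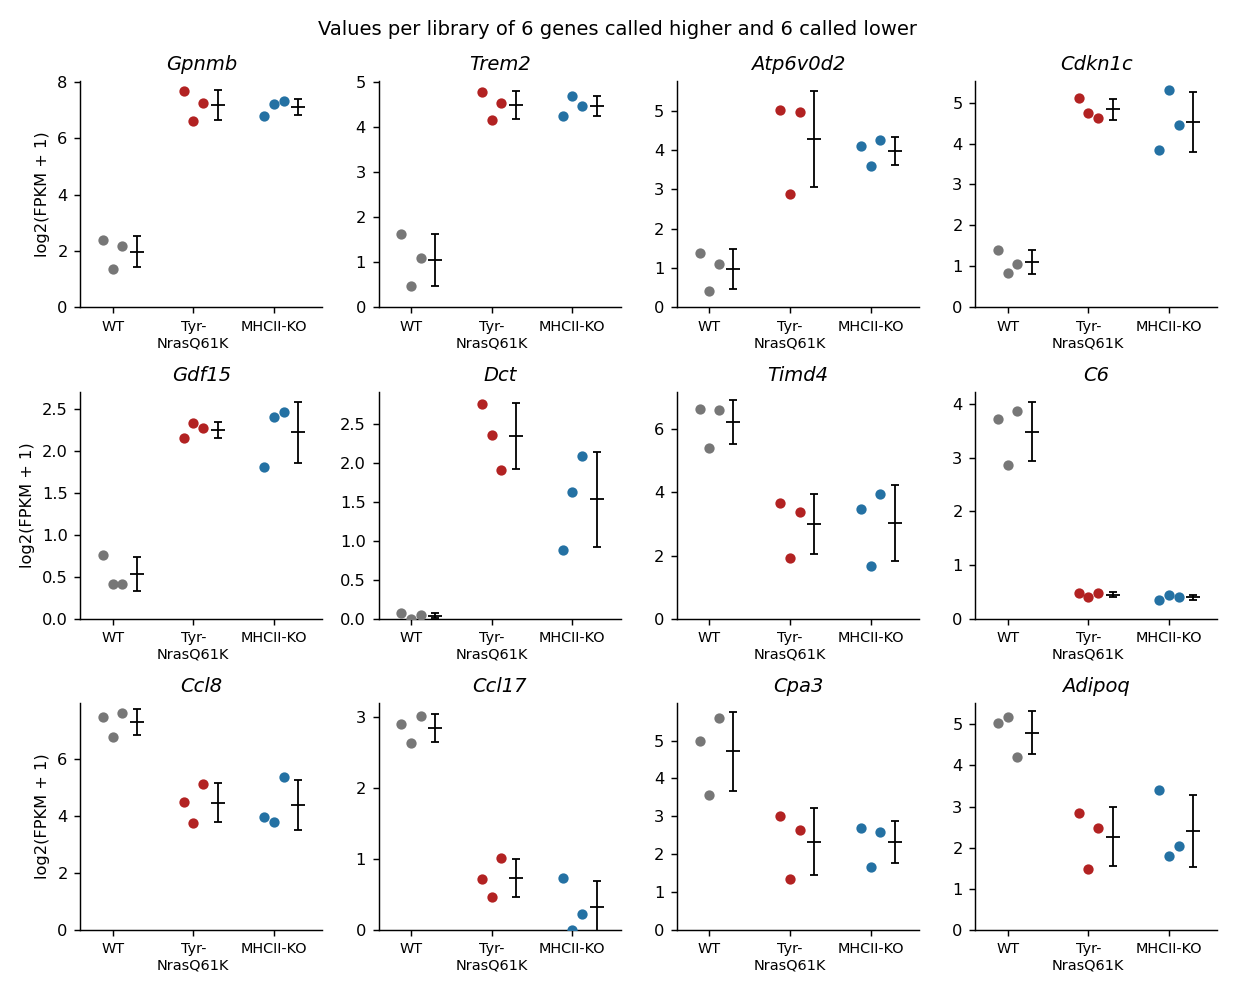
Levels of 12 genes, with log2(FPKM + 1) on the vertical axis and the WT, Tyr-NrasQ61K and MHCII-KO groups side by side; points show single libraries, and black marks with whiskers show mean ± SD (n = 3). All 6 oncogene libraries lie above the 3 WT libraries for Gpnmb, Trem2, Atp6v0d2, Cdkn1c, Gdf15 and Dct, and below them for Timd4, C6, Ccl8, Ccl17, Cpa3 and Adipoq.

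Among lysosome genes in general, 1 of 29 entries (28 symbols) rose, against 0.639% of all genes. This was Gla, which encodes the hydrolase alpha-galactosidase A. Gla was at 2.43, 1.43 and 2.99 FPKM in WT and at 4.48 to 7.28 in the oncogene libraries (log2 fold change 1.14, adjusted p = 0.0200 from limma), and it missed the threshold without WT replicate 1 (0.0984) or 3 (0.0540). The median of the list was 0.02, and with median-ratio scaling it was 0.27 with 7 genes called higher. Of 19 proton pump subunits tested, a family gathered by symbol after the values were seen, 3 rose, against 0.639% of all genes, and 9 of the 19 were above 0, with a median of -0.01. Beside Atp6v0d2 these were Atp6v0c, a subunit of the proton channel (11.2 to 16.0 FPKM in WT, 35.6 to 57.2 in the oncogene libraries, log2 fold change 1.62), and Tcirg1, the a3 subunit of osteoclasts and phagocytes (19.8 to 28.7 and 41.0 to 93.4 FPKM, 1.31). Atp6v0d2 and Atp6v0c were called in all 21 alternatives and Tcirg1 in 14 of them. Further genes of lysosomes in bone-resorbing and phagocytic cells, also noticed after their values were seen, were the metal transporter gene Slc11a1 (log2 fold change 1.30), the chloride exchanger gene Clcn7 (0.87) and the lysosome positioning gene Plekhm1 (0.96), with adjusted p from 0.0238 to 0.0276 from limma.

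Melanocyte genes rose in part. Of 21 measured, 12 were tested and 5 of these rose, Dct, Mlana, Pmel, Mfsd12 and Tspan10, against 0.639% of all genes. Since Dct, Mlana and Pmel were under 1 FPKM in every WT library and passed the filter only through the oncogene libraries, nothing is read from this count. Dct, a pigment enzyme, was at 0.0508, 0 and 0.0319 FPKM in WT, at 5.81, 4.16 and 2.77 in Tyr-NrasQ61K and at 0.847, 2.10 and 3.25 in MHCII-KO (log2 fold change 1.90, standard error 0.257, adjusted p = 0.00283 from limma). Mlana, a melanosome protein, was at 0.452, 0 and 0.143 FPKM in WT, at 3.29, 2.65 and 2.63 in Tyr-NrasQ61K and at 0.508, 0.508 and 1.86 in MHCII-KO (1.18, adjusted p = 0.0204 from limma). For both genes the WT libraries were near 0 and every oncogene library was higher, but in Mlana the lowest MHCII-KO libraries came close to the highest WT library. The 95% interval of MHCII-KO minus Tyr-NrasQ61K was -1.46 to -0.17 for Dct and -1.61 to -0.48 for Mlana, unadjusted, and neither difference passed over all genes. Mfsd12, a melanosome and lysosome transporter, was at 2.22 to 3.90 FPKM in WT and 10.2 to 16.2 in the oncogene libraries (1.76, adjusted p = 0.00162 from limma), and the tetraspanin gene Tspan10 at 2.62 to 5.42 and 14.6 to 20.8 (1.87, adjusted p = 0.00157 from limma). Pmel, the fibril protein of melanosomes, was at 0.238 to 0.271 FPKM in WT and 0.616 to 1.38 in the oncogene libraries (0.69, adjusted p = 0.0483 from limma).

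Other melanocyte genes did not pass. Tyr, the enzyme whose promoter drives the transgene, was at 1.59, 0.595 and 2.04 FPKM in WT and at 0.970 to 1.65 in the oncogene libraries, and the master regulator gene Mitf at 2.53 to 3.26 and 2.06 to 4.50, with overlapping groups in each. In 2 of the 12 genes every oncogene library lay below every WT library, though neither was called. These were Kit, the receptor of stem cell factor on melanocytes and mast cells (5.58, 6.12 and 7.87 FPKM in WT, 1.45 to 5.42 in the oncogene libraries, log2 fold change -0.83, adjusted p = 0.127 from limma), and Rab27a, which carries melanosomes and secretory granules (4.59 to 6.74 and 2.30 to 4.25 FPKM, -0.67, adjusted p = 0.106 from limma). Tyrp1, a pigment enzyme under the filter, was listed at 0 in every WT library and at 0.0582 to 0.992 FPKM in the oncogene libraries, and Sox10, which defines the lineage, at 0.0449 to 0.366 and 0.136 to 0.542. Mlana missed the threshold without WT replicate 1 (adjusted p = 0.0587 from limma) or 3 (0.132), and with all 6 oncogene libraries as 1 group (0.0654). Of the 12 genes, 3 were called without WT replicate 1 and without WT replicate 3, and 4 without both libraries that stood apart.

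Of 19 genes of senescence and its secreted factors, 2 rose and 2 fell (10.5% each, against 0.639% and 1.66% of all genes), with a median log2 fold change of -0.36, and with median-ratio scaling 4 rose and 2 fell. Cdkn1c, the cyclin-dependent kinase inhibitor p57, was at 1.66, 0.778 and 1.08 FPKM in WT, at 33.8, 26.0 and 23.8 in Tyr-NrasQ61K and at 13.3, 38.4 and 20.8 in MHCII-KO (log2 fold change 3.58, standard error 0.290, adjusted p = 0.000102 from limma). Gdf15, a factor secreted under cell stress, was at 0.698, 0.331 and 0.329 FPKM in WT, at 3.44, 4.06 and 3.83 in Tyr-NrasQ61K and at 2.5, 4.31 and 4.52 in MHCII-KO (1.71, standard error 0.192, adjusted p = 0.00108 from limma). In both genes each oncogene library exceeded each WT library. Gdf15 passed the filter only through the oncogene libraries, so nothing is read from the count of rises. The genes that fell were Igfbp5, a binding protein of insulin-like growth factors (6.71 to 13.6 FPKM in WT, 2.30 to 5.03 in the oncogene libraries, -1.25), and Cdkn2c, the kinase inhibitor p18 (6.17 to 9.84 and 2.69 to 4.53 FPKM, -0.97). Both were at an adjusted p of 0.0243 from limma, and both missed the threshold without WT replicate 1 or 3 or MHCII-KO replicate 2 or 3 (adjusted p from 0.0509 to 0.201 from limma). The best known arrest genes of senescence did not pass, with Cdkn1a (p21) at 2.51 to 4.57 FPKM in WT and 3.18 to 6.15 in the oncogene libraries (0.23, adjusted p = 0.505 from limma) and Cdkn2a (p16 and p19) at 1.03 to 2.39 and 0.977 to 2.57 (-0.03, adjusted p = 0.935 from limma). Of the interleukin and CXC chemokine genes of the list, Il6, Cxcl1, Cxcl2 and Cxcl5 were under the filter, while Il1a and Il1b were tested and not called.

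Of 13 genes of RAS and ERK feedback, 0 passed the test by limma, against 2.29% of all genes. At an unadjusted p under 0.05 by limma, 1 lay higher and 3 lay lower, beside 661 and 2565 of all 11902 genes. The median of the list was -0.15 and became 0.05 with median-ratio scaling. Dusp6, a phosphatase induced by ERK, was at 19.5, 11.8 and 21.4 FPKM in WT and at 7.13 to 11.5 in the oncogene libraries (log2 fold change -0.83, adjusted p = 0.0875 from limma), and Ccnd1, the gene of cyclin D1, at 12.6 to 25.1 and 10 to 17.1 (-0.46, adjusted p = 0.232 from limma). Of 22 cell cycle genes, likewise 0 passed by limma. Of these, 8 were lower and 0 higher at an unadjusted p under 0.05 by limma, to be read beside the same 2565 and 661 genes. Mki67, a marker of cycling cells, was at 11.8, 5.35 and 8.66 FPKM in WT, at 6.14, 5.78 and 4.93 in Tyr-NrasQ61K and at 4.74, 3.07 and 5.48 in MHCII-KO (-0.64, adjusted p = 0.136 from limma). Without WT replicate 2, 2 feedback and 6 cell cycle genes were called lower, as were 563 of all tested genes.

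The remaining genes with the largest rises belong to no single group. Ahnak2, a large scaffold protein, was at 2.07, 1.37 and 1.86 FPKM in WT and at 10.6 to 26.9 in the oncogene libraries (log2 fold change 2.79, adjusted p = 0.000407 from limma). Pld3, a lysosomal nuclease, was at 23.3, 12.8 and 21.8 FPKM and at 59.4 to 154 (2.46, adjusted p = 0.00283 from limma). S100a1, a calcium-binding protein, rose by 1.98 on the log2 scale, the membrane peptidase gene Anpep by 1.93 and Mamdc2 by 1.77, with adjusted p from 0.000608 to 0.00209 from limma. Lars2, the mitochondrial leucyl-tRNA synthetase, was at 11.5, 33.3 and 48.6 FPKM in WT, at 75.5, 233 and 108 in Tyr-NrasQ61K and at 87.5, 217 and 198 in MHCII-KO (2.34, adjusted p = 0.0269 from limma). It missed the threshold without WT replicate 1 (0.177), MHCII-KO replicate 2 (0.0556) or MHCII-KO replicate 3 (0.0645). The 2 largest fitted rises were of predicted genes left out by the naming rule, Gm17604 and Gm10985, which were listed at 0 in every WT library and also in 1 oncogene library each, against as much as 491 and 570 FPKM in others.

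**Figure D4:**
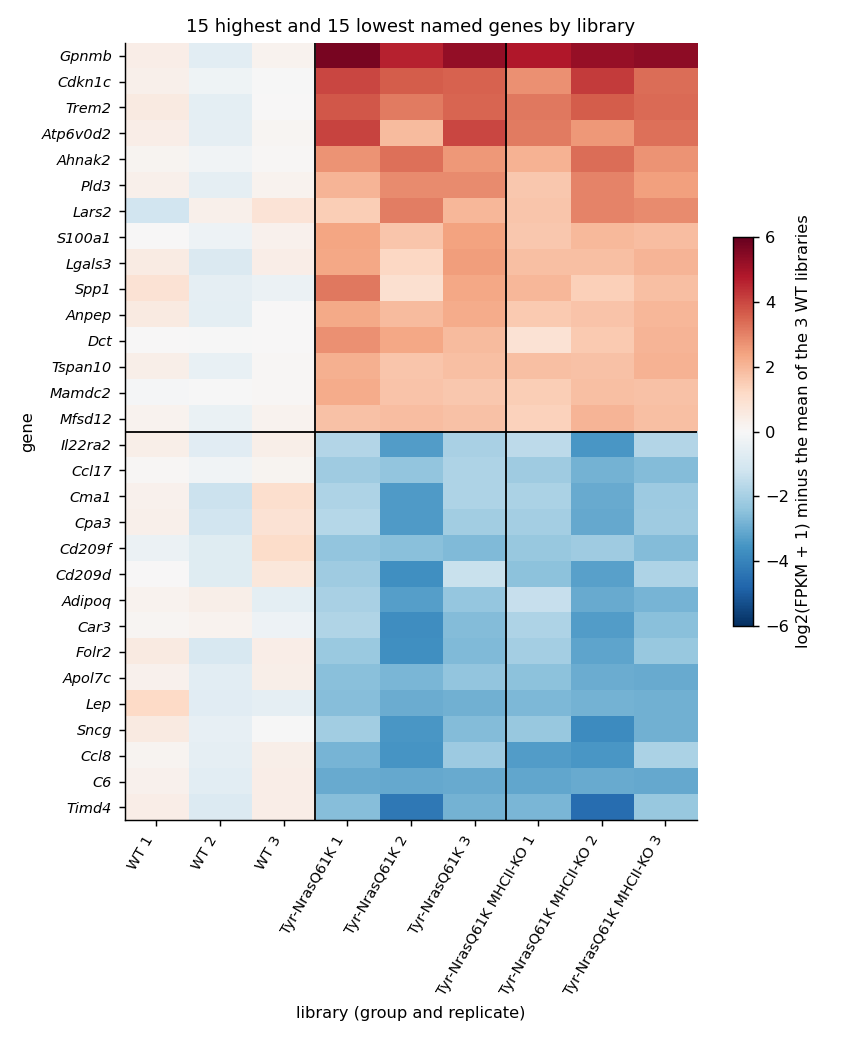
Level of the 15 named genes with the largest rise and the 15 with the largest fall in each of 9 libraries, as log2(FPKM + 1) minus the mean of the 3 WT libraries (red higher, blue lower). The 6 oncogene columns carry a single colour in every row, since the naming rule took only genes without overlap. The strongest blue of Timd4, Cd209d and Folr2 is in replicate 2 of both oncogene groups.

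Genes of lymph node sinus macrophages fell in part. Of 16 tested, 2 fell (12.5% against 1.66% of all genes) and 0 rose, with a median log2 fold change of -0.85. Timd4, a phosphatidylserine receptor of resident macrophages, was at 98.3, 41.9 and 97.2 FPKM in WT, at 11.8, 2.77 and 9.52 in Tyr-NrasQ61K and at 10.1, 2.15 and 14.3 in MHCII-KO (log2 fold change -3.22, standard error 0.513, adjusted p = 0.00837 from limma). Marco, a scavenger receptor of medullary macrophages, was at 130, 51.8 and 142 FPKM in WT, at 22.9, 19.6 and 24.2 in Tyr-NrasQ61K and at 23.6, 13.9 and 40.0 in MHCII-KO (-2.06, adjusted p = 0.0140 from limma). The groups did not overlap in either gene, and WT replicate 2 was the lowest WT library in both. Without WT replicate 1 or 3, Timd4 (adjusted p = 0.0671 and 0.0656 from limma) and Marco (0.102 and 0.108) missed the threshold, and the list then held 0 genes that fell. Siglec1, which defines subcapsular sinus macrophages, was at 37.3 FPKM in WT replicate 1 and listed at 0 in the other 2 WT libraries, against 8.63 to 18.6 in the oncogene libraries (2.18, adjusted p = 0.157 from limma).

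Further resident macrophage genes outside this list fell as well. Folr2, a folate receptor, was at 35.2, 11.6 and 31.8 FPKM in WT and at 0.939 to 4.99 in the oncogene libraries (log2 fold change -2.67, adjusted p = 0.00564 from limma). Ccl8, a chemokine made by macrophages, was at 176, 109 and 198 FPKM in WT, at 21.5, 12.6 and 34.0 in Tyr-NrasQ61K and at 14.5, 12.8 and 40.8 in MHCII-KO (-2.88, standard error 0.392, adjusted p = 0.00305 from limma). Of the CD209 family of C-type lectins, gathered by symbol after the values were seen, 5 of 7 fell, against 1.66% of all genes. Among these, Cd209d (13.7 to 38.9 FPKM in WT, 0.923 to 8.87 in the oncogene libraries, -2.44) missed the threshold without WT replicate 1 (0.124) or 3 (0.158), while Cd209f (3.62 to 15.3 and 0.213 to 0.770 FPKM, -2.42, adjusted p = 0.00279 from limma) held. Cd209b, the most abundant member, was at 222, 105 and 236 FPKM in WT and at 30.7 to 88.9 in the oncogene libraries, without overlap (-1.53, adjusted p = 0.0573 from limma), and Cd209c at 2.02 to 3.45 and 2.62 to 4.30 (0.19, adjusted p = 0.544 from limma). Members of such families are alike in sequence, and how reads shared between them were counted is not given in the sources used here, so the values of single members are uncertain.

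Genes of mature migratory dendritic cells fell. Of 18 tested, 5 fell (27.8% against 1.66% of all genes) and 0 rose, with a median of -0.82. This list too was chosen with earlier results of these data known, so nothing is read from the count. Ccl17, a chemokine for T cells, was at 6.48, 5.22 and 7.08 FPKM in WT, at 0.642, 0.379 and 1.02 in Tyr-NrasQ61K and at 0.658, 0 and 0.172 in MHCII-KO (log2 fold change -2.33, standard error 0.202, adjusted p = 0.000183 from limma). Its neighbour Ccl22, which binds the same receptor, was at 28.4, 14.8 and 17.0 FPKM in WT and at 3.69 to 11.7 in the oncogene libraries (-1.61, adjusted p = 0.0200 from limma). Apol7c, an apolipoprotein L of dendritic cells, was at 90.4, 47.6 and 95.7 FPKM in WT, at 12.1, 10.1 and 13.7 in Tyr-NrasQ61K and at 12.6, 8.72 and 8.32 in MHCII-KO (-2.68, standard error 0.255, adjusted p = 0.000352 from limma). The 3 WT libraries lay above all oncogene libraries for each of these genes. The calcium channel subunit gene Cacnb3 (-1.01) and the maturation marker gene Cd83 (-1.24) fell too, with adjusted p of 0.0238 and 0.0468 from limma. Ccr7, the receptor that guides these cells to the node, was at 28.4 to 35.8 FPKM in WT and at 12.3 to 25.7 in the oncogene libraries, without overlap (-0.80, adjusted p = 0.102 from limma).

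Of the apolipoprotein L family, gathered by symbol after the values were seen, 4 of 6 fell, Apol7a, Apol6, Apol7c and Apol10b, against 1.66% of all genes. Apol10b was called in 11 of the 21 alternatives and the other three in all of them. Of 16 genes of the dendritic cell lineage, 4 fell (25% against 1.66% of all genes) and 0 rose, with a median of -0.61. Summed over the 17 measured genes of the list, the FPKM lay between 224 and 349 in WT, between 266 and 379 in Tyr-NrasQ61K and between 253 and 282 in MHCII-KO, which overlap. Sirpa, an inhibitory receptor of dendritic cells and macrophages, lay the other way without overlap, at 68.2, 30.9 and 65.6 FPKM in WT and at 76.6 to 139 in the oncogene libraries (log2 fold change 1.12, adjusted p = 0.0774 from limma, and 0.0205 with median-ratio scaling). The 4 that fell were the lectin genes Clec10a (log2 fold change -1.54) and Cd209a (-1.33), the integrin gene Itgae (-1.18) and the growth factor receptor gene Flt3 (-0.88), with adjusted p from 0.0200 to 0.0349 from limma. Il22ra2, the soluble inhibitor of interleukin 22, which dendritic cells make, was at 28.6, 13.4 and 28.4 FPKM in WT and at 1.06 to 6.93 in the oncogene libraries (-2.31, adjusted p = 0.0238 from limma). Without WT replicate 1 or 3, 0 of the 16 lineage genes and 2 of the 18 mature genes, Ccl17 and Apol7c, were called. The adjusted p of Ccl22 was then 0.141 and 0.0824, that of Cacnb3 0.190 and 0.131, that of Clec10a 0.143 and 0.133 and that of Il22ra2 0.159 and 0.156 from limma. Itgae, Flt3 and Cd209a also missed it without MHCII-KO replicate 3 (adjusted p from 0.0502 to 0.0939 from limma), and Flt3 and Cd209a without MHCII-KO replicate 2 or Tyr-NrasQ61K replicate 1 (0.0513 to 0.0754). Without MHCII-KO replicate 3, Cacnb3 was at 0.0699.

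Of 15 neutrophil and mast cell genes, 6 fell (40% against 1.66% of all genes), and all 6 were mast cell genes. Cpa3, a granule protease, was at 31.1, 10.8 and 47.4 FPKM in WT, at 7.05, 1.54 and 5.26 in Tyr-NrasQ61K and at 5.42, 2.18 and 4.95 in MHCII-KO (log2 fold change -2.40, standard error 0.455, adjusted p = 0.0204 from limma). The proteases Cma1 (13.8 to 73.0 FPKM in WT, 2.46 to 9.24 in the oncogene libraries, -2.37), Tpsb2 (-1.97) and Mcpt4 (-2.13) fell, as did the IgE receptor chains Ms4a2 (-1.16) and Fcer1a (-1.80), with adjusted p from 0.0102 to 0.0429 from limma. Ms4a2 passed the filter only through the WT libraries, so nothing is read from the count of 6. Groups did not overlap for any of the 6, and WT replicate 2 was the lowest WT library for each. Without WT replicate 1 or 3 none of the 6 was called, with adjusted p of 0.125 and 0.141 for Cpa3, 0.168 and 0.195 for Cma1, 0.124 and 0.132 for Tpsb2 and 0.0827 and 0.0768 for Ms4a2 from limma. Cma1 also missed the threshold without MHCII-KO replicate 2 (0.0544) or 3 (0.0543).

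Interferon-stimulated and GTPase genes fell. Of 22 tested, 9 fell (40.9% against 1.66% of all genes) and 0 rose, with a median of -0.86. As the list was chosen with earlier results of these data known, nothing is read from this count. Cxcl9, a chemokine induced by interferon gamma, was at 16.2, 5.90 and 11.6 FPKM in WT, at 2.23, 1.76 and 2.32 in Tyr-NrasQ61K and at 2.82, 1.2 and 2.01 in MHCII-KO (log2 fold change -1.92, standard error 0.276, adjusted p = 0.00405 from limma). The other 8 were the guanylate-binding protein genes Gbp2, Gbp4, Gbp5, Gbp6 and Gbp7 and the immunity-related GTPase genes Iigp1, Igtp and Irgm2, cell-autonomous defence factors. Gbp2 was at 34.8, 18.3 and 43.3 FPKM in WT and at 7.80 to 11.2 in the oncogene libraries (-1.53, adjusted p = 0.0109 from limma), and Iigp1 at 32.4, 15.7 and 37.3 and at 4.08 to 11.7 (-1.84, adjusted p = 0.0102 from limma). All oncogene libraries were below all WT libraries for each of the 9. Igtp and Irgm2 overlap in the genome, so reads of one may count for the other. Without WT replicate 1 or 3, only Cxcl9 kept its call in this list, with adjusted p of 0.0863 and 0.0824 for Gbp2, 0.0827 and 0.0817 for Iigp1 and 0.124 and 0.152 for Gbp6 from limma. Gbp6 also missed the threshold without MHCII-KO replicate 3 (0.0519).

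Adipocyte genes fell. Of 17 tested, 10 fell (58.8% against 1.66% of all genes) and 0 rose, with a median of -1.65. Of these, Lep and Npr3 were under 1 FPKM in every oncogene library and passed the filter only through WT. The list was also chosen with earlier results of these data known, so nothing is read from this count. Lep, the fat hormone leptin, was at 19.3, 4.62 and 5.13 FPKM in WT, at 0.506, 0.139 and 0.207 in Tyr-NrasQ61K and at 0.393, 0.241 and 0.207 in MHCII-KO (log2 fold change -2.80, standard error 0.338, adjusted p = 0.00164 from limma). Adipoq, the gene of adiponectin, was at 31.6, 35.0 and 17.4 FPKM in WT, at 6.18, 1.77 and 4.61 in Tyr-NrasQ61K and at 9.63, 2.47 and 3.08 in MHCII-KO (-2.46, standard error 0.392, adjusted p = 0.00837 from limma). No oncogene library reached the lowest WT library in these genes. The natriuretic peptide receptor gene Npr3 (-2.31), the lipid droplet genes Plin4 (-2.27), Plin1 (-1.95) and Cidec (-1.65), the fat synthesis gene Dgat2 (-1.81), the carbonic anhydrase gene Car3 (-2.63), the resistin gene Retn (-1.18) and Ghr (-1.36), which encodes the receptor of growth hormone, fell too, with adjusted p from 0.000199 to 0.0486 from limma. Sncg, a synuclein, was at 18.5, 8.49 and 12.4 FPKM in WT and at 0 to 2.23 in the oncogene libraries (-2.85, adjusted p = 0.00222 from limma). Without WT replicate 1, Adipoq missed the threshold (adjusted p = 0.0662 from limma) and 6 of the 17 genes were called. Summed over the 18 adipocyte genes measured, the FPKM lay between 635 and 1159.7 in WT, between 129.5 and 398 in Tyr-NrasQ61K and between 159 and 392 in MHCII-KO, no gene of the list being at 0 throughout. This sum fell beside the macrophage, dendritic, mast cell and GTPase genes above, and its part in those results was not tested.

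C6, a component of the membrane attack complex, was the only gene of 18 complement genes that was called, against 2.29% of all genes. C6 passed the filter only through the WT libraries, so nothing is read from this count. It was at 12.2, 6.22 and 13.6 FPKM in WT, at 0.385, 0.316 and 0.385 in Tyr-NrasQ61K and at 0.269, 0.358 and 0.327 in MHCII-KO (log2 fold change -3.06, standard error 0.215, adjusted p = 4.11e-05 from limma). The mean of the oncogene libraries was 31.4-fold lower than that of WT, every one of them lay below every WT library, and they spanned only 0.269 to 0.385 FPKM. C6 lies on chromosome 15 of mm10 from 4727175 to 4814967, between Ghr (3317760 to 3583492) and Npr3 (11839896 to 11907287). Ghr was at 12.4, 11.9 and 9.67 FPKM in WT and at 3.3 to 4 in the oncogene libraries, and Npr3 at 7.28, 3.63 and 4.76 and at 0.0345 to 0.496. In the 8.59 Mb from Ghr to Npr3, 35 genes were tested and these 3 alone were called, and the others had a median of -0.40. C7, the next gene of the same complex, was at 1.70, 0.779 and 2.43 FPKM in WT and at 2.79 to 7.34 in the oncogene libraries (1.14, adjusted p = 0.0521 from limma).

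Few lymphocyte and antigen presentation genes were called. By limma, 0 of 22 T cell, 16 B cell, 13 MHC class II and 14 MHC class I genes were called. Over all genes 2.29% were. With unadjusted p under 0.05 by limma, 1, 0, 0 and 0 of them lay higher and 9, 3, 2 and 4 lay lower. By the same measure 661 of all 11902 genes lay higher and 2565 lay lower. The medians of these lists were -0.47, -0.16, -0.37 and -0.36. With median-ratio scaling they became -0.23, 0.09, -0.12 and -0.11, while quantile normalization turned that of MHC class II genes to 0.11. Cd4, the coreceptor of helper T cells, was at 59.0, 30.4 and 59.7 FPKM in WT, at 106, 56.0 and 176 in Tyr-NrasQ61K and at 91.4, 63.8 and 105 in MHCII-KO, with 1 oncogene library within the WT range (log2 fold change 0.95, adjusted p = 0.137 from limma). It passed in 7 of the 21 alternatives, among them median-ratio scaling (adjusted p = 0.0237 from limma), quantile normalization (0.0140) and the fit without both libraries that stood apart (0.0499), and without WT replicate 1 or 3 it was at 0.381 and 0.397. Cd74, the invariant chain of MHC class II, was at 1772, 1113 and 1531 FPKM in WT and at 1179.6 to 1595 in the oncogene libraries (log2 fold change -0.01, adjusted p = 0.988 from limma, and 0.25 with median-ratio scaling). H2-Aa, a chain of MHC class II, was at 1091, 667 and 932 FPKM in WT and at 276 to 802 in the oncogene libraries. Its log2 fold change was -0.82 (adjusted p = 0.197 from limma), and -0.56 with median-ratio scaling. Ciita, the master regulator of MHC class II genes, was at 36.6, 36.9 and 35.2 FPKM and at 28.7 to 41.4 (-0.11, adjusted p = 0.705 from limma, and 0.14 with median-ratio scaling). The groups overlapped for Cd74, H2-Aa and Ciita. B2m, the light chain of MHC class I, was at 1699.8, 722 and 1451 FPKM in WT and at 60.2 to 680 in the oncogene libraries, without overlap (-1.96, adjusted p = 0.134 from limma), and its lowest values, 60.2 and 136, were those of the libraries that stood apart.

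Of 15 regulatory T cell and T cell activation genes, 3 fell (20% against 1.66% of all genes), with a median of -0.68, and Foxp3, which defines regulatory T cells, was not among them. Foxp3 was at 2.09, 1.01 and 1.33 FPKM in WT and at 1.15 to 2.01 in the oncogene libraries (log2 fold change 0.08, adjusted p = 0.803 from limma), a direction that turned with library weights (-0.20) and without WT replicate 2 (-0.06). The 3 that fell were Itgae and the inhibitory receptor genes Pdcd1 (2.94 to 6.52 FPKM in WT, 1.51 to 2.34 in the oncogene libraries, -0.96, adjusted p = 0.0376 from limma) and Ctla4 (5.03 to 8.56 and 1.35 to 5.96 FPKM, overlapping, -1.24, adjusted p = 0.0478 from limma). None of them was called without WT replicate 1 or 3, with adjusted p of 0.250 and 0.226 for Pdcd1, 0.253 and 0.256 for Ctla4 and 0.138 and 0.141 for Itgae from limma. Of the fits that left out 1 library, Pdcd1 was called only in those without the second replicate of WT or of Tyr-NrasQ61K, and Ctla4 missed the threshold also without Tyr-NrasQ61K replicate 1 or MHCII-KO replicate 2 or 3 (0.0746 to 0.103). Pdcd1 missed it with median-ratio scaling (0.0596) and quantile normalization (0.0579) as well, and Ctla4 with GC and length correction (0.0711), a pseudocount of 0.1 (0.0641) and without both libraries that stood apart (0.0636). Gzmc, a granzyme, was the 1 gene of 15 NK cell and cytotoxic granule genes that fell (1.62 to 2.26 FPKM in WT, 0 to 0.324 in the oncogene libraries, -1.38, adjusted p = 0.00120 from limma). Over all genes 1.66% fell, and Gzmc passed the filter only through the WT libraries, so nothing is read from this count.

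In the remaining lists few genes passed, to be read beside the 2.29% called over all genes. Of 14 germinal center and plasma cell genes, Gcet2, a germinal center B cell gene, fell (log2 fold change -0.92, adjusted p = 0.0349 from limma), and it was called without WT replicate 2, Tyr-NrasQ61K replicate 2 or MHCII-KO replicate 1 and missed the threshold when any other single library was left out (0.0502 to 0.224). Of 22 stroma and vessel genes, Myh11, the myosin of smooth muscle, fell (4.41 to 6.61 FPKM in WT, 1.79 to 2.85 in the oncogene libraries, -1.04, adjusted p = 0.0166 from limma), but not without WT replicate 1 (0.127) or 3 (0.132). Of 4 epidermis, mammary gland and muscle genes, 5 red cell genes and 16 immediate early and heat shock genes, 0 were called by limma. With unadjusted p under 0.05 by limma, 0, 0 and 3 of them lay higher and 2, 0 and 1 lay lower. Over all 11902 genes these counts were 661 and 2565. The medians of these lists were -0.40, -0.10 and -0.01, and those of red cell and immediate early genes turned to 0.10 and 0.21 with median-ratio scaling. Summed over 8 red cell genes, the FPKM lay between 70.0 and 228 in WT and between 49.5 and 294 in the oncogene libraries, which overlap.

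**Figure D5:**
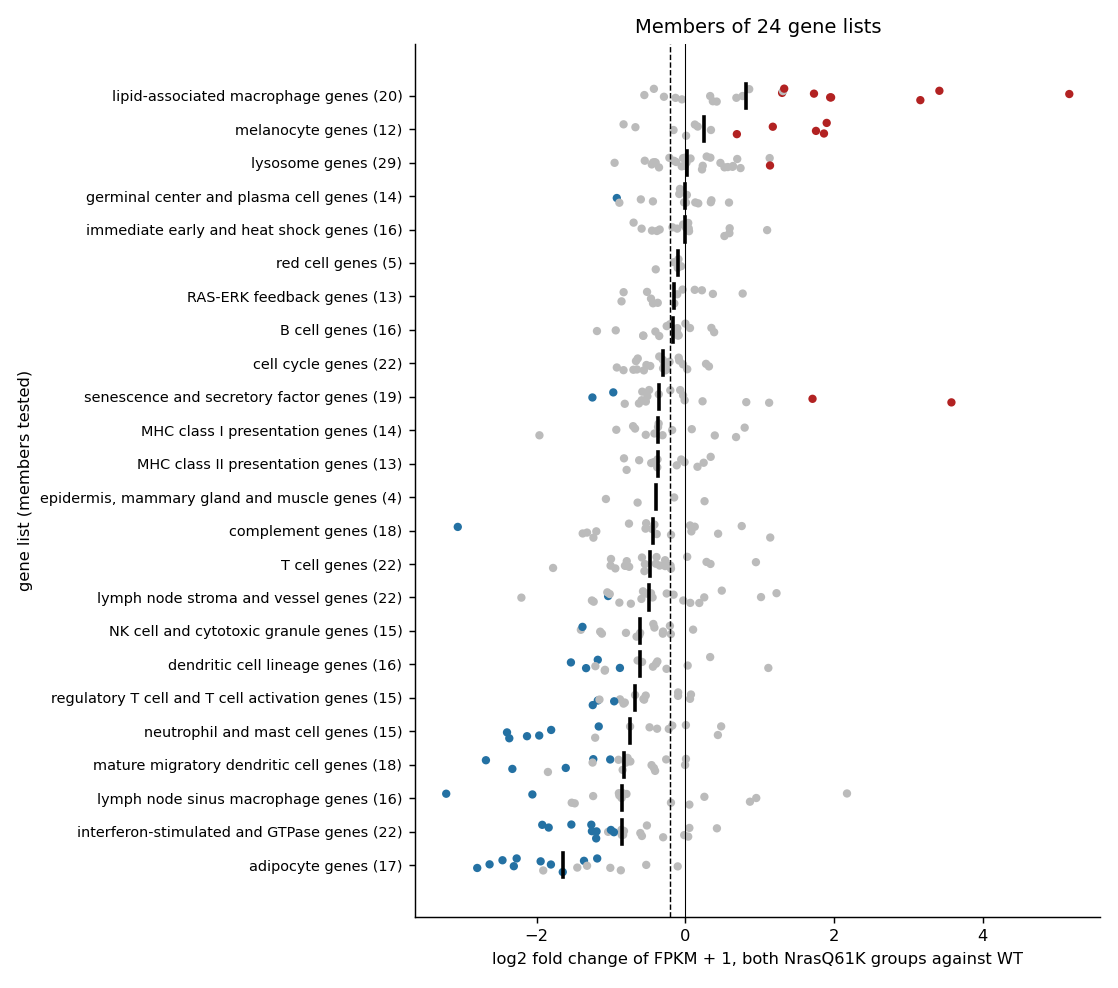
Change of every tested member of 24 gene lists (horizontal axis, log2 fold change of FPKM + 1, both NrasQ61K groups against WT), with the number tested in brackets; red points rose, blue points fell, grey points did not pass, and black bars are list medians. The dashed line is the median of all genes at -0.20; lipid-associated macrophage genes have the highest median (0.82) and adipocyte genes the lowest (-1.65).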

How the data were processed

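RNA of 9 lymph node libraries (3 per group) had been sequenced on a Genome Analyzer IIx. The deposited table holds FPKM values, which the authors made per library with TopHat and Cufflinks on mm10. Software versions, annotation and read counts were not given in the sources used here, so absolute depth is unknown and no counting interval can be given. Depth relative to WT replicate 1 was estimated from the values themselves. It was lowest in the libraries that stood apart, at 0.752 in Tyr-NrasQ61K replicate 2 and 0.866 in MHCII-KO replicate 2. The other libraries ran from 1 to 1.68. Whether depth set those libraries apart was not tested. Cuffdiff, also named in the processing notes, was not rerun, since it needs aligned reads. Of 37819 entries, 18 with several values per library were left out, and 0 value columns were unassigned.

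Gene types came from GENCODE M21. Protein-coding genes that reached 1 FPKM in 3 or more libraries were fitted as log2(FPKM + 1), a scale that understates changes of low genes, with limma 3.58.1 (R 4.3.3; group means, moderated variances with trend, two-sided, Benjamini-Hochberg over all 11902 genes, threshold 0.05). The pooled contrast was the mean of both oncogene groups minus WT. The scripts were tested on simulated data; tables and figures used Python 3.11.15, pandas 2.3.3, numpy 2.4.6 and matplotlib 3.10.9.

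Named genes were up to 15 higher and 15 lower genes by largest change without overlap and without predicted genes, up to 4 called members of each list (or, with none called, the 2 most abundant), up to 5 called between the oncogene groups, and Nras, H2-Ab1, Ciita, Foxp3 and Mki67. Other genes named were chosen after their values were seen. The members and all 24 gene lists were chosen with earlier results of these data known. Alternatives changed the pseudocount, filter, gene types, scaling, grouping, weights, block, GC and length correction and variance fit, or left out libraries.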

Additional observations from a re-analysis of the deposited data

How the results depend on the processing

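Against 76 higher and 197 lower genes by limma, the counts were 71 and 120 with a pseudocount of 0.1, 50 and 130 with no filter, 34 and 32 with all gene types, 265 and 252 with median-ratio scaling, 281 and 294 with quantile normalization, 116 and 317 with all oncogene libraries as 1 group, and 899 and 5450 with library weights, which ran from 0.181 to 5.28. Leaving out 1 library gave 24 to 138 higher and 35 to 563 lower genes. GC and length correction (80 and 225), robust variances (75 and 198) and leaving out both libraries that stood apart (105 and 175) stayed within 1.5 times. Of the 57 called genes taken by the naming rule, 26 were called in all 21 alternatives. The causes of these shifts were not tested.

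With a replicate block the counts were 533 and 2783, and 406 and 2713 with GC and length correction too. With the block alone, 10 of 22 T cell genes and 10 of 16 sinus macrophage genes fell, and 1 gene of each list rose. Libraries of the same number deviated from their group means with r from -0.0605 to 0.647 across genes, and not every library correlated best with its own number. No label ties numbers to a litter or day, and whether libraries of the same number share a batch was not tested.

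Directions of uncalled genes turned as follows, in log2 fold change. Median-ratio scaling and quantile normalization turned Cd74 to 0.25 and 0.40, H2-K1 to 0.085 and 0.33, Mylpf to 0.00851 and 0.00922, Hba-a1 to 0.20 and 0.18, Ier5 to 0.081 and 0.040, and Ciita to 0.14 and 0.11. Library weights turned H2-Ab1 to -0.062, Foxp3 to -0.20 and Hba-a1 to 0.081. GC and length correction, with or without the replicate block, turned Mylpf to 0.046, Hba-a1 to 0.010 and Foxp3 to -0.17. Without both libraries that stood apart, Mylpf was at 0.27 and Hba-a1 at 0.00469. Over the fits without 1 library, Cd74 ran from -0.20 to 0.14, Mylpf from -0.50 to 0.37, Hbb-b1 from -0.83 to 0.080, Hba-a1 from -0.40 to 0.41 and Foxp3 from -0.063 to 0.25.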

Other observations

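The neighbouring eosinophil granule genes Prg2 and Prg3 on chromosome 2 moved in opposite directions. Prg2 was at 4.98, 1.58 and 6.08 FPKM in WT and at 8.55 to 19.3 in the oncogene libraries (log2 fold change 1.67, adjusted p = 0.0341 from limma), and Prg3 at 9.37, 1.88 and 10.6 and at 0.305 to 1.47 (-1.95, adjusted p = 0.0247 from limma). The groups did not overlap for either gene. The call of Prg2 held in 2 and that of Prg3 in 6 of the 9 fits that left out 1 library, with adjusted p of at most 0.115 and 0.179 from limma. The genes are paralogs, so reads shared between them are uncertain. Both were noticed after their values were seen.

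Further genes noticed in this way were P2ry12 (log2 fold change -1.83) and Gpr34 (-1.69), receptors of resident macrophages, which fell, while Clec4d (1.65), a C-type lectin of myeloid cells, Cxcr1 (1.17), a chemokine receptor, and Hk3 (1.47), a myeloid hexokinase, rose. Adjusted p ran from 0.00678 to 0.0225 from limma, and each call held in 7 or 8 of the 9 fits that left out 1 library.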
